A study of Mus musculus with 16 samples.

Results

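The 10 mouse genes described here act in cytokinesis and at the midbody: Cep55, Plk1, Kif23, Anln, Ect2, Prc1, Aurkb, Racgap1, Pdcd6ip and Tsg101. They were measured in embryonic stem cells (ESCs) with reduced RAM. The group was selected on Cep55, whose transcript was reduced more in polysomes than in the cytoplasmic lysate, and the other 9 genes were added because their proteins act at the same step of cell division. The values that selected Cep55 are therefore given as a description, without a test. The files list 46983 genes, 12805 of which had at least 1 CPM (counts scaled to library size) in at least 10 of the 16 libraries and were tested, and all 10 genes were among these. Their raw counts ranged from 500 for Tsg101 to 21856 for Anln per library.

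RAM is the activating subunit of the mRNA cap methyltransferase and is encoded by Ramac. The cells were 46C ESCs, a line of strain 129Ola mice with GFP at the Sox1 locus, grown in LIF and in knockout serum replacement. Control cells received a non-targeting siRNA and the others a RAM siRNA, and both were harvested 48 hr after transfection, following a short incubation with cycloheximide, which holds ribosomes on mRNA. A small share of each extract was kept as input, and the rest was spun through a sucrose gradient, from which the polysome fractions 17 to 22 were pooled. The 2 siRNAs and the 2 fractions give 4 groups of 4 libraries, and the question is which transcripts depend on RAM for their level or for their loading on ribosomes. An siRNA acts transiently and on a whole population of cells. The study's figure for these replicates names a single RAM siRNA, whose effects other than on RAM were not tested here.

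Cytokinesis begins when a bundle of antiparallel microtubules, the midzone, forms between the separating chromosomes and sends a signal through the GTPase RhoA that builds a contractile ring of actin and myosin. The ring closes onto the midzone, which is compacted into the midbody, the last bridge between the daughter cells. CEP55 collects there and recruits ALIX and the ESCRT-I complex, which lead to the assembly of ESCRT-III filaments and to abscission of the bridge.

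Many genes of this machinery carry in their promoters the cell cycle genes homology region, a short element with the core TTTGAA through which genes are repressed outside of late cell cycle. The promoters of RefSeq (GRCm38.p6, 250 bases before to 50 bases after a transcript start) were searched for TTTGAA on both strands, where the other strand reads TTCAAA. The letters were found in 8 of the 9 members with a promoter in that table, against 17.9% of 32851 promoters and 13.9% of 9736 tested genes. Within 50 bases of the start they were found in 7 of the 9, against 4.94% of promoters and 3.75% of tested genes. The matches are shown to let the windows be compared, with 12 bases on either side of the match nearest the start. The letters are in capitals, and Anln holds them on both strands.
Cep55: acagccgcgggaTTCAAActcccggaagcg
Anln: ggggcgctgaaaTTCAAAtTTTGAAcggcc
Ect2: cgactggattttTTTGAAtcggaggcggca
Kif23: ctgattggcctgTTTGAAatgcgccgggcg
Plk1: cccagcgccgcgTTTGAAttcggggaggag
Prc1: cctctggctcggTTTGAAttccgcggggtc
Racgap1: ctggtgcgtgatTTTGAAccggatctggcg
The Cep55 window lies at chr19:38054996-38055025 on the plus strand, and its letters begin at base 25 of one annotated transcript and 33 bases before the start of another. The Anln window lies at chr9:22389168-22389197 and the Kif23 window at chr9:61946780-61946809, both on the minus strand. The others lie at chr3:27153822-27153851 (Ect2, minus), chr7:122159453-122159482 (Plk1, plus), chr7:80294434-80294463 (Prc1, plus) and chr15:99651634-99651663 (Racgap1, minus). In Pdcd6ip the letters lay 134 bases before the start, and in Tsg101 they were not in the window. The letters near the start were also found in 12 of 22 other genes of G2 and M phase and in 4 of 7 genes of the chromosomal passenger complex and midzone, but in 1 of 16 ESCRT genes and 0 of 6 genes of the contractile ring. A match is a description of the letters and not evidence of binding.

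Libraries held between 16647523 and 20147833 counts. Ramac, the targeted gene, was lower in every RAM siRNA library than in every control library, at 2.66 to 3.16 CPM against 10.1 to 11.6 CPM in input and 0.286 to 2.60 CPM against 6.58 to 14.5 CPM in polysomes. The 8 ESC markers were expressed in every group (Pou5f1 between 420 and 530.3 CPM in control input). Nanog, Esrrb and Dppa5a, 3 of the 8, fell in RAM siRNA input, where 5.94% of all genes fell. With a replicate block (the libraries' replicate number as a factor in the fit) 7 of the 8 fell, where 19.0% of all genes did. Primitive endoderm markers were low but summed to more in RAM siRNA input (11.4 to 12.4 CPM over 6 genes) than in control input (7.99 to 8.38 CPM). Of the 3 that were tested, Gata6 and Dab2 rose there without the block, where 6.95% of all genes rose, and with it, where 20.3% did. Dab2 also rose in polysomes with the block (0.52), where 9.68% of all genes rose. The 6 fibroblast markers summed to 16.8 to 19.7 CPM in control input and 18.4 to 28.4 CPM in RAM siRNA input, and the 6 neural markers to 71.3 to 83.3 CPM and 77.5 to 91.6 CPM. Only 2 of the fibroblast and 4 of the neural markers were tested, and none of these was called without the block. With it the fibroblast marker Pdgfra rose in input (0.42) and in polysomes (0.67), the neural marker Pax6 fell in both (-0.51 and -0.93), and Nes rose in input (0.43). In the fits with the block 19.0% of all genes fell and 20.3% rose in input, and 4.97% fell and 9.68% rose in polysomes. In input the mean of Pax6 was 12.3 CPM in controls against 8.75 CPM after RAM siRNA, and that of Nes 27.6 against 37.2 CPM. Col3a1 and Dcn, and the neuronal genes Neurog2 and Dcx, had 0 counts in all 4 control input libraries. The part of these cell types in the results below was not tested. Libraries with the same replicate number deviated together from their group means, so values with the block are given where they change a call. In these bulk samples, fewer cells in late cell cycle and less of a transcript per cell cannot be told apart.

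Cep55 encodes a coiled-coil protein of the centrosome and midbody (ENSMUSG00000024989, chr19:38055011-38074423, plus strand, GRCm38). In control input Cep55 had 300.3, 319, 290 and 284 CPM in replicates 1 to 4, scaled by TMM over the 16 libraries, and in RAM siRNA input 218, 264, 239 and 178 CPM. In control polysomes it had 231, 215, 150.1 and 161 CPM, and in RAM siRNA polysomes 74.5, 87.2, 57.1 and 57.3 CPM. In both fractions every RAM siRNA library was lower than every control library, and in polysomes the highest RAM siRNA library was far below the lowest control library. The RAM siRNA mean was 75.3% of the control mean in input (225 ± 36.1 against 298 ± 15.3 CPM; SD, n = 4 each) and 36.5% in polysomes (69.0 ± 14.6 against 189 ± 39.9 CPM). The log2 fold change was -0.41 in input (standard error 0.11) and -1.41 in polysomes (standard error 0.20), and no p is given because the gene was chosen on this difference. By the size of the fitted fall Cep55 ranked 561 of 12805 genes in input and 13 in polysomes.

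**Figure D1:**
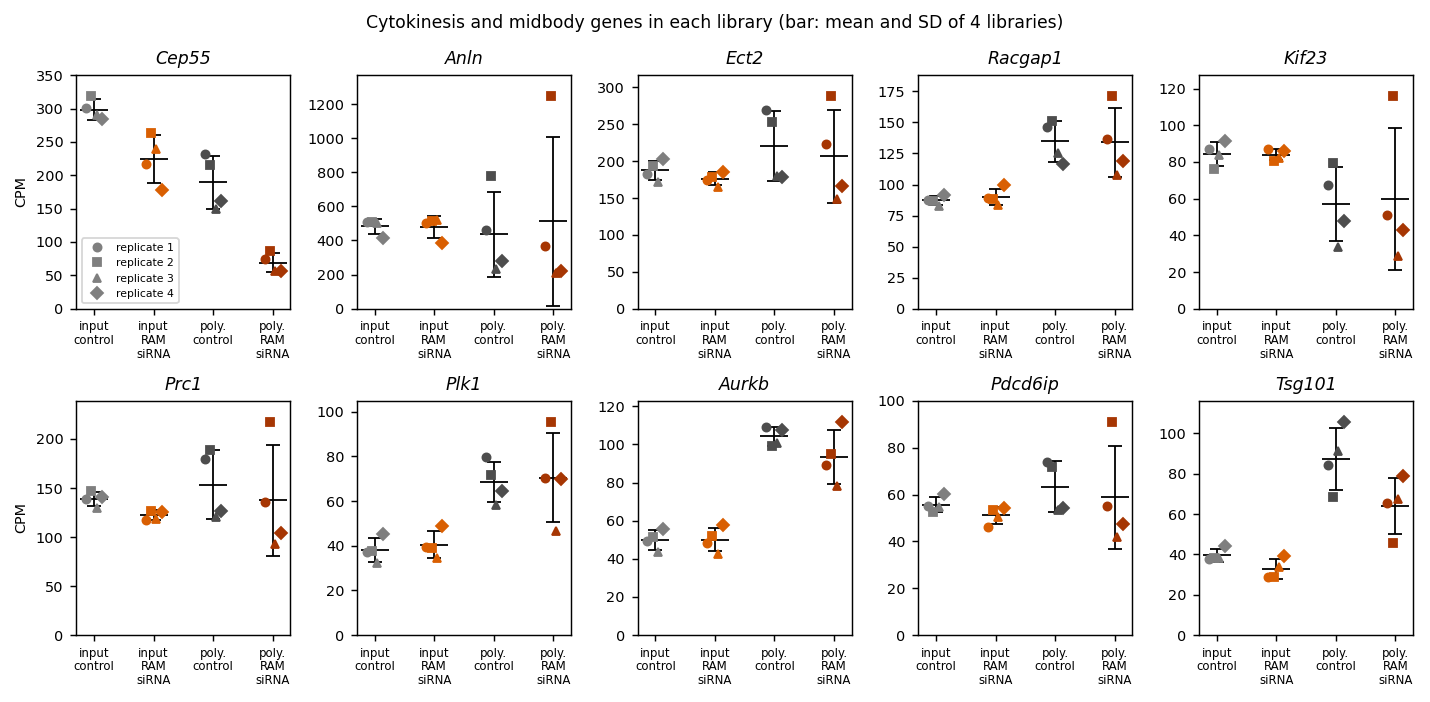
CPM (linear axes from 0, TMM over the 16 libraries) of the 10 genes in each library, with a point a library, its replicate number as the marker, and the mean and SD of the 4 libraries. Cep55 lies between 178 and 264 CPM in RAM siRNA input and between 57.1 and 87.2 CPM in RAM siRNA polysomes, and Anln reaches 1248 CPM in RAM siRNA polysome replicate 2.

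Each extract gave an input and a polysome library, so the level in polysomes can be set against the level in the same extract. Both levels are scaled to library size, so a fall in loading shared by all genes would not show in them. The study reported that RAM siRNA lowered the ratio of polysomes to monosomes. Changes in loading here are therefore relative to the other genes. For Cep55 the log2 ratio of polysome to input CPM was -0.38, -0.57, -0.95 and -0.82 in the control cultures 1 to 4 and -1.55, -1.60, -2.06 and -1.64 in the RAM siRNA cultures. The 4 RAM siRNA ratios all lay below the 4 control ratios. Within same-numbered pairs the difference was -1.17, -1.03, -1.11 and -0.82. The fitted change in polysome loading was -1.05 (standard error 0.25), and -1.03 with a replicate block within each fraction (standard error 0.12). By this change Cep55 ranked 6 of 12805 genes from the largest fall. The gene was chosen on this change, so the rank and the separation of the ratios are a description only. With replicates 1 and 2 alone the change was -1.43 in polysomes and -1.04 in loading, and with replicates 3 and 4 alone -1.39 and -0.98. Already in control cells Cep55 was lower in polysomes than in input, by -0.69 on the log2 scale (standard error 0.15).

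No such fall in loading, relative to the other genes, was detected in the other 9 members. Their fitted changes in polysome loading ran from -0.17 (Tsg101, standard error 0.24) to 0.23 (Anln, standard error 0.66), and 0 of the 9 were called lower or higher (edgeR quasi-likelihood test, adjusted p = 1.00 for each), where 0.0% of all genes were called in either direction. At an unadjusted p under 0.05, 100 genes and 0 of the 9 members passed. With a replicate block within each fraction 0.0156% of genes were called lower and 0.0% higher, again with 0 of the 9 members. The standard errors without the block were largest for Anln and Kif23 (0.66 and 0.46), whose polysome levels varied most. Without RAM siRNA polysome replicate 2, with control replicate 2 kept, the loading change of Anln was -0.70 and that of Kif23 -0.47, and neither was called. All 9 loading changes were below 0 without that library, from -0.70 to -0.033, and with the block within fractions and without replicate 2 they ran from -0.24 to -0.13, with 0 called in either fit.

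**Figure D2:**
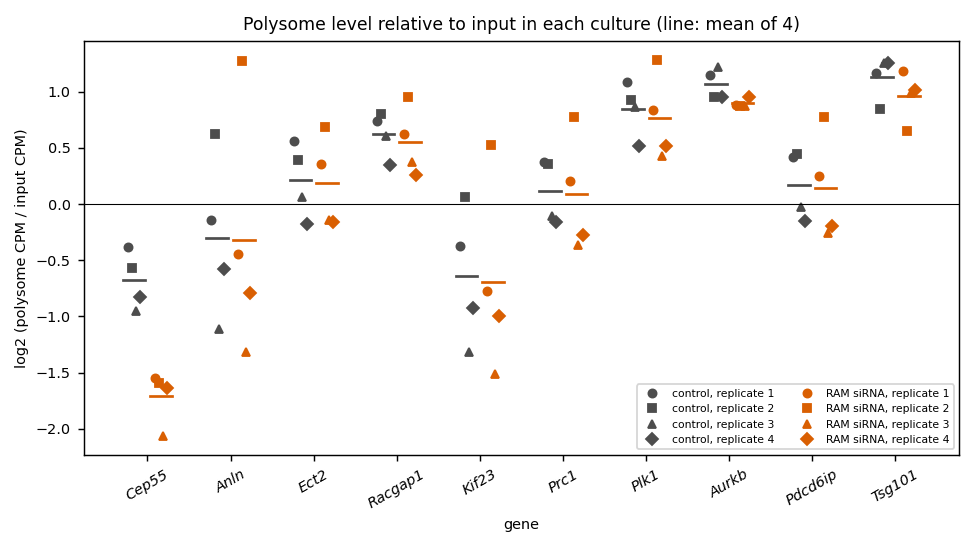
Log2 ratio of polysome to input CPM in the 4 control and the 4 RAM siRNA cultures for each gene, with a line at the mean of 4. The Cep55 ratios of the RAM siRNA cultures (-2.06 to -1.55) lie below those of the control cultures (-0.95 to -0.38), and for the other 9 genes the groups overlap.

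The partners that CEP55 recruits were considered next. Tsg101, a subunit of ESCRT-I (ENSMUSG00000014402, chr7:46888949-46919969, minus strand), had 37.6, 38.1, 38.3 and 44.3 CPM in control input and 28.8, 28.9, 34.0 and 39.0 CPM in RAM siRNA input. In control polysomes it had 84.2, 68.3, 91.5 and 106 CPM, and in RAM siRNA polysomes 65.3, 45.4, 67.3 and 78.7 CPM. The groups overlap in both fractions, but within each same-numbered pair the RAM siRNA library was lower, in 4 of 4 pairs of input and 4 of 4 of polysomes. Without a block the input change of -0.28 (standard error 0.10) was not called (adjusted p = 0.0928, edgeR quasi-likelihood test), and with the replicate block it was (-0.28, standard error 0.06, adjusted p = 0.000451). It was also called without input RAM siRNA replicate 4 (-0.37, adjusted p = 0.0127). In polysomes the change was -0.40 (standard error 0.22, adjusted p = 0.675) without and -0.41 (standard error 0.11, adjusted p = 0.0190) with the block. The table also lists a pseudogene of Tsg101, with which it may share reads. Tsg101 thus fell in both fractions with the block, and its change in loading of -0.17 was not called with it or without it.

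Pdcd6ip, which encodes ALIX (ENSMUSG00000032504, chr9:113651744-113708259, minus strand), ranged from 52.8 to 60.3 CPM in control input and 46.3 to 54.5 CPM in RAM siRNA input. Its polysome ranges were 53.6 to 73.9 and 42.0 to 91.0 CPM. The ranges overlapped in both fractions. Its input change of -0.13 (standard error 0.07) had an adjusted p of 0.283 without and 0.0491 with the replicate block in edgeR's quasi-likelihood test, a call that was lost when libraries were scaled over all 16 in place of the 8 of input. In polysomes Pdcd6ip differed by -0.063 (standard error 0.24), and this was not called. Without RAM siRNA polysome replicate 2 it was at -0.33 and not called, and with the block and without replicate 2 at -0.26, which was called (adjusted p = 0.0108, edgeR quasi-likelihood test).

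The midzone and its signal to the ring came next. Prc1, which crosslinks the antiparallel microtubules of the midzone (ENSMUSG00000038943, chr7:80294450-80316259, plus strand), had 139, 147, 129 and 140.4 CPM in control input and 118, 127, 119 and 126 CPM in RAM siRNA input. All 4 RAM siRNA libraries were lower than all 4 control libraries. The log2 change of -0.19 (standard error 0.07) had an adjusted p of 0.0908 without the block and 0.00182 with it (edgeR quasi-likelihood test). In polysomes Prc1 had 179.5, 188, 120.1 and 126 CPM in control and 136, 217, 92.4 and 104 CPM in RAM siRNA libraries, and replicate 2 alone was higher with RAM siRNA than in its control. The change there was -0.12 (standard error 0.27) and was not called. It was -0.41 without RAM siRNA polysome replicate 2, also not called, and -0.30 with the block and without replicate 2, which was called (adjusted p = 0.0042, edgeR quasi-likelihood test).

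Kif23 and Racgap1 encode the kinesin and the GTPase-activating protein that together form centralspindlin, and Ect2 the exchange factor that activates RhoA. In input Kif23 (ENSMUSG00000032254) ranged from 75.9 to 91.2 CPM in control and 80.7 to 86.9 CPM in RAM siRNA libraries, and its log2 change was -0.012 (standard error 0.07). Racgap1 (ENSMUSG00000023015) ranged from 82.6 to 91.6 and 83.5 to 99.3 CPM (0.044, standard error 0.07). Ect2 (ENSMUSG00000027699) ranged from 172 to 202 and 165 to 186 CPM (-0.095, standard error 0.07), and it was lower with RAM siRNA in 4 of 4 pairs. None of the 3 was called in input, with the block or without it, and their groups overlapped.

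In polysomes Kif23 had 67.4, 79.3, 33.7 and 47.9 CPM in control and 50.9, 116, 28.9 and 43.0 CPM in RAM siRNA libraries. Replicate 2 was the highest library of each group, and the RAM siRNA library was lower than its control in the other 3 pairs. The fitted change was 0.10 (standard error 0.41), and -0.42 without RAM siRNA polysome replicate 2, a fit that keeps control replicate 2. With the block and without replicate 2 in either group it was -0.21 (standard error 0.08). That change was called (adjusted p = 0.0453, edgeR quasi-likelihood test). Ect2 ranged from 179 to 270.0 CPM in control and from 149 to 289 CPM in RAM siRNA polysomes (-0.048, standard error 0.23), and Racgap1 from 117 to 151 and 108 to 171 CPM (0.032, standard error 0.17). Neither was called.

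Plk1 and Aurkb encode kinases, of which PLK1 prepares the midzone for ECT2 and AURKB is the catalytic subunit of the chromosomal passenger complex. Plk1 (ENSMUSG00000030867) ranged from 32.2 to 45.1 CPM in control and from 34.6 to 48.8 CPM in RAM siRNA input, and it was higher with RAM siRNA in 4 of 4 pairs, by a log2 change of 0.083 (standard error 0.12) that was not called. Aurkb (ENSMUSG00000020897) ranged from 43.4 to 55.6 and 42.7 to 57.6 CPM in input, with a log2 change of 0.0019 (standard error 0.10). In polysomes Plk1 ranged from 58.4 to 79.6 CPM in control and 46.6 to 95.4 CPM in RAM siRNA libraries (0.083, standard error 0.20). Aurkb ranged from 99.2 to 109 and 78.0 to 112 CPM there (-0.11, standard error 0.15). For neither kinase was the difference larger than the spread between libraries. The exons of Plk1 overlap those of Gm44985 and the exons of Prc1 those of Rccd1, both on the other strand, and the strand setting of the counting was not given in the sources used here.

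Anln encodes anillin, the scaffold that ties actin, myosin and septins of the ring to RhoA and to the midzone (ENSMUSG00000036777, chr9:22332012-22389188, minus strand). In input Anln had 508, 505.5, 499.7 and 416 CPM in control and 503, 517, 520.0 and 385 CPM in RAM siRNA libraries, and the groups overlapped (-0.0051, standard error 0.11, not called). In control polysomes it had 459.8, 778, 231 and 278 CPM, and in RAM siRNA polysomes 370.4, 1248, 209 and 222 CPM. The 2 highest values are those of replicate 2 in both groups, and in the other 3 pairs the RAM siRNA library was lower. The fitted change of 0.27 (standard error 0.59) was not called, and without RAM siRNA polysome replicate 2 it was -0.65, also not called. That fit keeps control polysome replicate 2, which was also high. With the block and without replicate 2 in either group, the change was -0.20 (standard error 0.08). It was not called there (adjusted p = 0.0517, edgeR quasi-likelihood test).

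Across the 9 members, 0 were called lower and 0 higher in input without the block, where 5.94% and 6.95% of all genes were called (edgeR quasi-likelihood test; at an unadjusted p under 0.05, Prc1 and Tsg101 passed). With the replicate block 3 of the 9 were called lower, Tsg101, Prc1 and Pdcd6ip, and 0 higher, where 19.0% of genes were called lower and 20.3% higher. In polysomes 0 of the 9 were called without the block, where 0.0234% of genes were called lower and 0.0% higher, and 0 of the 9 had an unadjusted p under 0.05. With the block 1 of the 9, Tsg101, was called lower, where 4.97% of genes were called lower and 9.68% higher. With the block and without replicate 2, a setting chosen after seeing the data, 4 of the 9 were called lower in polysomes, Prc1, Tsg101, Pdcd6ip and Kif23, and 0 higher, where 14.3% of genes were called lower and 21.3% higher. Cep55 was at -1.45 in that fit (standard error 0.08), and the largest change among the other 9 was that of Tsg101 at -0.35 (standard error 0.07).

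**Figure D3:**
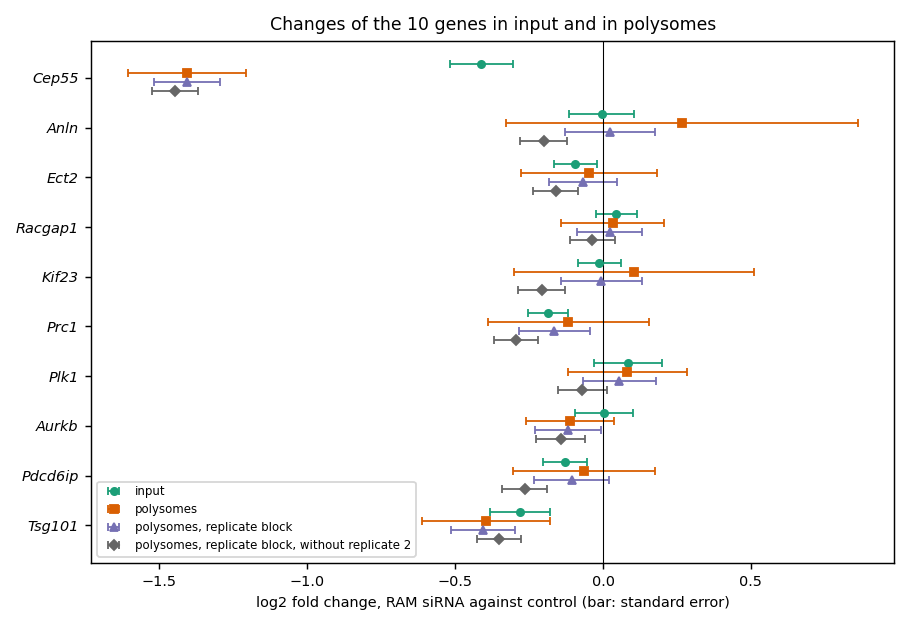
Log2 fold changes of RAM siRNA against control, with standard errors, in input, in polysomes, in polysomes with a replicate block, and with the block without replicate 2. Cep55 is at -0.41 in input and at -1.41, -1.41 and -1.45 in the 3 polysome fits, and the other 9 genes lie between -0.41 and 0.27.

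The polysome values of most of these genes moved together across libraries. Over the 8 polysome libraries, the deviations of log2 CPM from the group means had a Pearson r between 0.80 and 0.99 for the 28 pairs among the 8 members other than Aurkb and Tsg101. Tsg101 deviated the other way, with r between -0.93 and -0.58 against those 8, and Aurkb showed r between 0.03 and 0.56. In the 8 input libraries r for the same 28 pairs ran from -0.89 (Anln with Racgap1) to 0.97 (Plk1 with Racgap1). The 8 were set apart from Aurkb and Tsg101 on these same values, and the same r was not computed for genes outside the group. The points share libraries and scaling, and no test was made.

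Transcript length moved with the same libraries. Across 12777 tested genes with an exon length, the deviation of a library from its group mean had a Spearman rho with length of 0.56 in RAM siRNA polysome replicate 2 and 0.54 in control polysome replicate 2, but -0.51 and -0.49 in replicate 4 of the same groups. In RAM siRNA polysome replicate 2 the median deviation was -0.51 in the shortest of 5 length classes of about equal size and 0.44 in the longest, which starts at 7561 bases. Anln (9063 bases), Prc1 (8225) and Kif23 (7901) are in the longest class and deviated by 1.70, 0.74 and 1.15 in that library. Plk1 (2199 bases, the shortest class) and Cep55 (2905 bases) deviated upward too, by 0.48 and 0.36, whereas Tsg101 (2730 bases) deviated by -0.47. The part of length in the members' values was not tested. Cep55 was at -1.52 in polysomes and -1.18 in loading without this library.

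**Figure D4:**
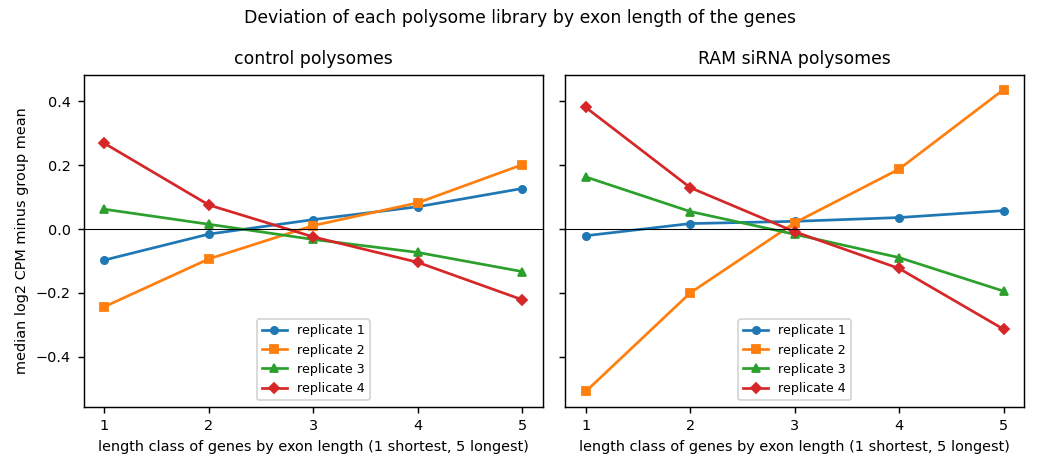
Median deviation of log2 CPM from the group mean in 5 classes of genes by union exon length, for each polysome library. RAM siRNA replicate 2 runs from -0.51 in the shortest to 0.44 in the longest class, and replicate 4 runs the other way, from 0.38 to -0.31.

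In control cells the members were distributed differently between polysomes and input. Of the 9, 4 were called higher in polysomes, where 33.1% of genes were (edgeR quasi-likelihood test), and 1 was called lower, where 34.3% of genes were. Tsg101 was higher by 1.11 (standard error 0.14, adjusted p = 4.08e-05), Aurkb by 1.03 (standard error 0.11, adjusted p = 1.21e-05), Plk1 by 0.81 (standard error 0.13, adjusted p = 0.000241) and Racgap1 by 0.59 (standard error 0.12, adjusted p = 0.000744). Each of the 4 was higher in polysomes in 4 of 4 control cultures. Kif23 was lower by -0.60 (standard error 0.22, adjusted p = 0.0271), and lower in 3 of 4. The Kif23 call was lost without any of 5 single libraries (input control replicates 1, 3 and 4 and polysome control replicates 3 and 4, adjusted p from 0.0504 to 0.0664). Ect2, Pdcd6ip, Prc1 and Anln differed by 0.20, 0.15, 0.11 and -0.18 and were not called, although Anln was called lower (-0.60) without polysome control replicate 2. The 2 fractions were purified by different methods, which cannot be told apart from ribosome loading here.

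Levels of different genes were compared per length of exon in control input. Cep55 was the highest of the 10 at 103 ± 5.27 CPM per kb (SD, n = 4), followed by Anln at 53.2 ± 4.90 and Ect2 at 34.8 ± 2.41 CPM per kb, and the ranges of these did not overlap with each other or with the next gene. Plk1, Aurkb and Prc1 were between 16.9 and 17.3 CPM per kb on average and did not differ beyond their spread, and Tsg101 at 14.5 ± 1.16 overlapped with all 3. Racgap1 (12.3 ± 0.517), Kif23 (10.7 ± 0.824) and Pdcd6ip (8.08 ± 0.470 CPM per kb) followed, with ranges that did not overlap. The lengths are those of all annotated exons of a gene joined, so a gene expressed from its short isoforms is understated.

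The wider machinery was read from 4 gene lists, chosen with earlier results of these data known. Of 25 other genes of G2 and M phase, 6 fell and 0 rose in RAM siRNA input (median log2 change -0.18, against 0.00 for all genes), where 5.94% of all genes fell and 6.95% rose. With the replicate block 17 fell, where 19.0% of all genes did. The cyclins Ccnb2 (-0.66, standard error 0.07, adjusted p = 0.000143 in edgeR's quasi-likelihood test), Ccnb1 and Ccna2, the securin Pttg1 and the kinesins Kif11 and Kif18a were the 6. Ccnb2, which activates CDK1, averaged 113 ± 2.69 CPM in control input and 72.1 ± 4.14 CPM after RAM siRNA, and 314 ± 26.1 and 195 ± 27.3 CPM in the polysomes of these groups (SD, n = 4 each). The separase gene Espl1 had the highest input value of the list, -0.013. In polysomes 0 of the 25 were called without the block (median -0.11, against 0.06 for all genes), 4 fell with it (Ccna2, Ccnb1, Ccnb2 and Cdc25c), where 4.97% of all genes did, and 15 fell with the block and without replicate 2, where 14.3% did. Without RAM siRNA polysome replicate 2 the median was -0.37 with 23 of the 25 below 0, and the medians of the next 3 lists were -0.36, -0.24 and 0.035. That fit keeps control replicate 2. With the block and without replicate 2 in either group the 4 medians were -0.24, -0.18, -0.12 and 0.017, against 0.029 for all genes. Values without the block ran from -0.64 for Ccnb2 to 0.76 for Mki67, a marker of cycling cells, which was at 520.0 CPM in RAM siRNA polysome replicate 2 and 33.0 to 125 CPM in the other 3.

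Of 10 genes of the chromosomal passenger complex and midzone, 2 fell in input, Kif4 (-0.34), a kinesin that binds PRC1, and Nusap1 (-0.27), which bundles microtubules, and 0 rose (median -0.10), where 5.94% of all genes fell. Incenp, the scaffold of the passenger complex, was the highest at 0.061. With the block 4 of the 10 fell in input, where 19.0% of all genes did. In polysomes 0 of the 10 were called with the block or without it, with values from -0.29 (Nusap1) to 0.28 (Kif20b). With the block and without replicate 2, 2 of the 10 fell, a share near the 14.3% of all genes.

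Of 13 genes of the contractile ring, 1 fell in input, Rock1 (-0.31, standard error 0.09, adjusted p = 0.0478 in edgeR's quasi-likelihood test), a kinase that RhoA activates, and 0 rose (median -0.064), a share near the 5.94% of all genes. With the block 4 fell and 1 rose, where 19.0% and 20.3% of all genes did. The 1 that rose was Myh9, a heavy chain of non-muscle myosin, at 0.13. In polysomes the values ran from -0.32 (Rock1) to 0.41 (Myh9) and 0 of 13 were called without the block, 1 with it (Rock1), where 4.97% of all genes fell, and 3 with the block and without replicate 2, where 14.3% fell.

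Of 21 ESCRT and abscission genes tested, 1 fell in input, Chmp4c (-0.52, standard error 0.10, adjusted p = 0.00575 in edgeR's quasi-likelihood test), an ESCRT-III subunit that delays abscission while chromatin is in the bridge, and 0 rose (median -0.12), a share near the 5.94% of all genes. With the block 6 of the 21 fell, where 19.0% of all genes did. Chmp4c had 40.8, 36.1, 35.1 and 35.3 CPM in control input and 30.7, 24.7, 24.8 and 22.7 CPM in RAM siRNA input, so all RAM siRNA libraries were below all control libraries. The highest value was that of Ist1, at 0.077. In polysomes 0 of 21 were called without the block and 1, Chmp4c (-0.40, adjusted p = 0.0241 in edgeR's quasi-likelihood test), with it, where 4.97% of all genes fell. Spast, the microtubule-severing ATPase of the bridge, had the highest polysome value at 0.19. With the block and without replicate 2, 3 of the 21 fell and 3 rose, where 14.3% and 21.3% of all genes did. For loading, 0 genes of the 4 lists were called in either direction, without a block or with a block within each fraction, and the list medians lay between -0.04 and 0.05 without it.

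**Figure D5:**
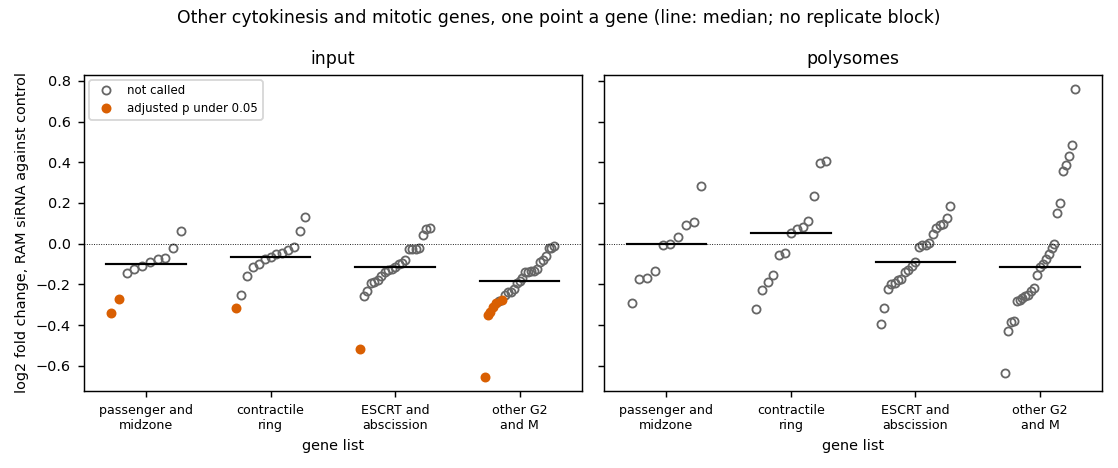
Log2 fold change of RAM siRNA against control for each gene of the 4 lists, in input and in polysomes without a block, with filled points for an adjusted p under 0.05 and a line at the median. The medians in input are -0.10, -0.064, -0.12 and -0.18 from left to right, and no point is filled in polysomes.

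The genes whose level was most like that of Cep55 over the 16 libraries were sought among the 9135 tested genes that averaged 10 CPM or more. The highest Pearson r of log2 CPM was that of Polr3f, a subunit of RNA polymerase III (0.99), followed by Dhx33 (0.95), Ikbkb (0.95), Plekhm3 (0.95) and Csnk1a1 (0.95). Their log2 changes were -0.33, -0.14, -0.15, -0.51 and -0.068 in input and -0.75, -0.55, -0.65, -0.59 and -0.21 in polysomes, in the same order. The genes were picked for following the library values of Cep55, so their direction is largely fixed by that choice. Among the other 9 members r with Cep55 ran from -0.62 (Aurkb) to 0.61 (Kif23). These values combine the differences between fractions with those between siRNAs, and no test was made.

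The 3′ UTRs of the members were searched for ACTATC and TGCTCA, letters that were themselves derived from earlier work on these data, so a match is a description only. They were searched on the transcript strand in basic protein-coding transcripts of GENCODE M21 (GRCm38). ACTATC was found in Cep55 and in Prc1, and in 15.7% of the 12051 tested genes with a 3′ UTR. The longer ACTATCA and TACTATCA were also searched and were found in none of the members. With the replicate block, 33.2% of genes with ACTATC were called lower in input, against 19.7% of all genes with a 3′ UTR. In polysomes these shares were 12.5% and 5.15%. Of genes with the longer ACTATCA and TACTATCA, 43.2% and 49.5% were called lower in input with the block. Since the letters were derived from these data, the shares of called genes are a description and no separate support. The median change in loading of genes with ACTATC was 0.0033, against 0.0011. The part of these letters in the values of Cep55 was not tested. The sites are shown because these genes differ in their polysome values, with the letters in capitals.
Cep55: aactttagcaaaACTATCttgcctcatttg
Prc1: tacctggctggcACTATCccagtgagggtt
The Cep55 site lies at chr19:38074166-38074195 and the Prc1 site at chr7:80315780-80315809, both on the plus strand in the 3′ UTR. TGCTCA was found in Anln, Aurkb, Pdcd6ip, Prc1 and Racgap1, and in 38.8% of genes. Of genes with TGCTCA, 18.6% were called lower in input and 4.26% in polysomes with the block.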

How the data were processed

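Total RNA depleted of ribosomal RNA was sequenced from 16 libraries. The authors deposited raw counts of reads per gene, and according to the methods and the submitters' processing notes reads were mapped to mm10 (GRCm38) with STAR 2.5.1b and counted with HTSeq. The strand and overlap settings and the annotation release are not given in the sources used here, and the labels and the methods describe the transfection differently. The table held 0 columns of other samples.

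Counts were tested in R 4.3.3 with edgeR 4.0.16 (quasi-likelihood test, TMM over the libraries of each fit, Benjamini-Hochberg adjustment over the 12805 genes with at least 1 CPM in at least 10 libraries, threshold 0.05). CPM in the text are scaled by TMM over all 16 libraries. In the deviations and correlations log2 CPM has 0.5 CPM added, and the log2 ratios of polysome to input CPM and their differences within pairs have none added. Input and polysome fits used the 8 libraries of the fraction, and the change in loading is the interaction of fraction and siRNA over all 16. DESeq2 1.42.0, limma 3.58.1 (voom), RLE scaling, no filter, replicate blocks, pairs of replicates and each library left out were alternatives. TMM over all 16 libraries in single-fraction fits, and the block without replicate 2, were added after seeing the data. The fits without a block were also run on simulated counts, drawn independently for each library. These had the same low dispersion for every gene and no replicate or length effect. The run therefore does not show how the fits perform on these polysome libraries. Its required recovery of changed genes was lowered after the loading comparison fell just short of it.

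The study describes 4 biological replicates on independent occasions. Deviations from the group means correlated between same-numbered libraries (r of 0.32 to 0.64 in input and 0.54 to 0.90 in polysomes over 12805 genes), so the numbers were taken to pair the libraries. The means for different numbers were -0.16 and -0.26. Their negative sign follows from taking deviations from the group mean and adds nothing.

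The members, gene lists, tests and searched letters were chosen with earlier results of these data known. All 10 members, Ramac, the cell type markers, the genes with the lowest and highest change of each list in each fraction and the 5 genes most like Cep55 were named by rule, and the other called genes of the lists were named after their values were seen. Coordinates, exon lengths and 3′ UTRs are from GENCODE M21 and promoters from RefSeq. Vps28 and Chmp1b of the ESCRT list were not analysed here.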

Additional observations from a re-analysis of the deposited data

Results flagged for a closer look

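In 4 of 40 groups of 4 libraries, 1 library lay far from the other 3, where chance flags about 5% of groups. Anln was lowest in replicate 4 of both input groups, with 416 CPM in control cells and 385 CPM after RAM siRNA, and highest in RAM siRNA polysome replicate 2, at 1248 CPM. Tsg101 was highest in control input replicate 4, at 44.3 CPM.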

How the results depend on the processing

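The change of Cep55 stayed below 0 under every alternative run, between -0.50 and -0.31 in input, -1.52 and -1.33 in polysomes, -1.18 and -0.94 in loading, and -0.79 and -0.56 for control polysomes against input. Cep55 was chosen on these same libraries, so these ranges describe the processing and are no separate support. The count of the other 9 members called lower in input was 0 without a block, 1 without a filter (Tsg101), 1 with DESeq2 (Prc1), 3 with the replicate block, 2 with the block and TMM over all 16 libraries, 3 with the block without replicate 2, and 0 to 1 when single libraries were left out. In polysomes it was 0, and 1, 1 and 4 with the same 3 block fits. For control polysomes against input it was 1, and 0 to 2 when single libraries were left out. Over all genes the polysome calls were 3 lower and 0 higher without a block, 144 and 156 with DESeq2, 18 and 21 without a filter, 636 and 1239 with the replicate block, and 897 and 1052 with the block and TMM over all 16 libraries. In input they were 761 and 890, 86 and 100 with all 16 libraries in one fit, and 2433 and 2595 with the block. Loading had 0 calls, 1 with DESeq2, and 103 lower and 70 higher with the block without replicate 2, none of them among the 9 members. Over the alternatives, 109 single-gene values changed sign, none of them called in the fit without a block and 1 (Kif23 in polysomes, -0.21) called with the block without replicate 2, and the cause was not tested. In the alternatives other than single libraries left out, these were, in polysomes, Kif23 (-0.011 with voom, -0.0062 with the replicate block, -0.054 with the block and TMM over all 16, -0.21 with the block without replicate 2, -0.14 with replicates 3 and 4), Anln (-0.025, -0.20 and -0.18 in the last 3), Plk1 (-0.070 and -0.031 in the last 2), Racgap1 (-0.016 without a filter, -0.012 with all 16 in one fit, -0.012 with TMM over all 16, -0.026, -0.036 and -0.044 in the last 3), and with replicates 1 and 2 Ect2 (0.0040) and Pdcd6ip (0.037). In input they were Aurkb (-0.024 without a filter, -0.00081 with voom and -0.0040 with the block without replicate 2). In loading, with voom, the block, the block within fractions, by culture, within fractions without replicate 2 and with replicates 3 and 4, Prc1 was at -0.029, -0.016, -0.030, -0.033, -0.18 and -0.18, Pdcd6ip at -0.028, -0.0041, -0.025, -0.030, -0.15 and -0.13, and, without the second of these, Kif23 at -0.049, -0.042, -0.061, -0.23 and -0.13 and Anln at -0.0089, -0.015, -0.040, -0.24 and -0.22. Ect2 was at 0.042 with RLE, 0.042 with DESeq2, 0.071 without a filter and 0.11 with replicates 1 and 2, Plk1 at 0.024 and 0.13 and Racgap1 at 0.011 and 0.084 in the last 2. With single libraries left out the ranges in input were -0.071 to 0.090 (Anln), -0.069 to 0.069 (Aurkb), -0.061 to 0.024 (Kif23), -0.016 to 0.17 (Plk1) and -0.0023 to 0.076 (Racgap1). In polysomes they were -0.65 to 0.71 (Anln), -0.42 to 0.32 (Kif23), -0.084 to 0.22 (Plk1), -0.24 to 0.058 (Ect2), -0.41 to 0.010 (Prc1), -0.095 to 0.097 (Racgap1) and -0.33 to 0.047 (Pdcd6ip). In loading they were -0.70 to 0.67 (Anln), -0.47 to 0.30 (Kif23), -0.20 to 0.12 (Ect2), -0.29 to 0.17 (Prc1), -0.20 to 0.047 (Racgap1), -0.27 to 0.15 (Pdcd6ip) and -0.23 to 0.11 (Plk1), and for control polysomes against input -0.60 to 0.050 (Anln).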
